A study of Mus musculus with 10 samples.

Results

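Interferons are secreted proteins that cells release when they sense viral nucleic acid. They bind surface receptors, the receptor-bound JAK kinases activate STAT transcription factors, and these, with interferon regulatory factors (IRFs), switch on a large group of antiviral genes. Fibroblasts are a classical source and target of type I interferon, whereas pluripotent stem cells are known for a weak interferon response. The genes described here are 9 such interferon-stimulated genes, chosen by symbol: the transcription factors Irf7 and Irf1, the ubiquitin-like modifier Isg15, the RNA-binding Ifit1, Ifit2 and Ifit3, the oligoadenylate synthetase-like Oasl2, and the membrane proteins Bst2 and Ifitm3. They are 9 of 54752 genes in the deposited tables.

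Primary mouse embryonic fibroblasts were taken on embryonic day 13.5 from a cross of Oct4-GFP transgenic males (CBA/CaJ × C57BL/6J) with 129S4/SvJaeJ females and used at passage 2. The cells were infected for 48 hours with retroviruses for Jdp2, Sall4, Esrrb and Glis1, a combination used to reprogram fibroblasts to pluripotency, and then kept in iCD3 medium. Libraries were made after 0, 1, 3, 5 and 7 days in that medium (D0, D1, D3, D5 and D7), with 2 libraries a day, numbered replicate 1 and 2, from what the series text calls independent experiments. All 10 libraries, D0 included, came from cells that had received all 4 viruses, and uninfected cells were not analysed here, so every change below is a change with time after infection. The D0 cells had spent 0 days in iCD3 medium. In comparisons with D0, time and the move into that medium therefore cannot be told apart. The cultures are mixed populations, in which fewer cells that make a transcript and less transcript per cell cannot be told apart.

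The libraries held 2176457 to 4335931 estimated read counts in replicate 1 and 1329377 to 1492105 in replicate 2. On the scale of CPM used here, read counts scaled to the TMM-adjusted total of the library, a count of 3 stands for 0.653 to 1.47 CPM in replicate 1 and for 1.97 to 2.32 CPM in replicate 2. The 12 markers of fibroblasts, the labelled cell type, summed to 603 and 938 CPM at D7, against 11933 and 13202 CPM at D0. The 10 pluripotency markers summed to 1910 and 1484 CPM at D7, against 25.9 and 27.7 CPM at D0. Macrophages, which express many interferon-stimulated genes, were checked through 14 markers, which summed to 17.2 and 9.86 CPM at D7 and to 45.5 and 22.5 CPM at D0. The 8 dendritic and lymphoid markers summed to at most 3.29 CPM in any library, with Siglech and Flt3 at 0 throughout. The 7 endothelial markers summed to 147 and 171.5 CPM at D7, against 25.9 and 31.4 CPM at D0. The part of these other cell types in the results was not tested.

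Interferon-stimulated genes are typically switched on through an interferon-stimulated response element (ISRE), bound by STAT and IRF proteins, or through a gamma-activated site (GAS), bound by STAT dimers. The 160 bases before each RefSeq start site (build GRCm38.p6) were searched on both strands for an ISRE core, which is GAAA, any 2 bases and GAAA again, and a GAS core, TTCNNNGAA. Windows of 5 of the genes are shown 5′ to 3′ on the strand of the gene, with the matched letters in capitals: 3 that hold the ISRE core, Irf1 for its GAS core, and Ifit2, which held no match, as the gene with the steepest loss among those tested. They are Isg15 at chr4:156200819-156200978 (minus strand), Ifit3 at chr19:34583369-34583528 (plus strand), Bst2 at chr8:71537473-71537632 (minus strand), Irf1 at chr11:53769854-53770013 (plus strand) and Ifit2 at chr19:34550534-34550693 (plus strand).
Isg15: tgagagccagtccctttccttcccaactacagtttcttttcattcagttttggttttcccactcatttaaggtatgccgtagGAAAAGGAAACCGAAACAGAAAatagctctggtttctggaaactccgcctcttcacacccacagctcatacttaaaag
Ifit3: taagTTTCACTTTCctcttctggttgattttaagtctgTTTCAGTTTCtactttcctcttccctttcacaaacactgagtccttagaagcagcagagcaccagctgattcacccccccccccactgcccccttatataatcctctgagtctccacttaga
Bst2: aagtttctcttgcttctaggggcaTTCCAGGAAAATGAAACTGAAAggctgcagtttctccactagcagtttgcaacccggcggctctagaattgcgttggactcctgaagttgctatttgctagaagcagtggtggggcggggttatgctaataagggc
Irf1: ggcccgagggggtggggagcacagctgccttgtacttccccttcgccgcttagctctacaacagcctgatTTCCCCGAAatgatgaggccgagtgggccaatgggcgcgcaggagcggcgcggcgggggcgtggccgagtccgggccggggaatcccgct
Ifit2: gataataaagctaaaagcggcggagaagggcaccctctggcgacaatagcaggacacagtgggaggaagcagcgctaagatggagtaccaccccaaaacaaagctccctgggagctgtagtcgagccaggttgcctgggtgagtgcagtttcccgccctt

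Isg15 held 3 overlapping ISRE cores between 78 and 57 bases before its start. Ifit1 held 2 on the opposite strand, at 104 to 95 and at 85 to 76 bases before the start, with the letters GAAAGTGAAA and GAAACTGAAA. Ifit3 held matches with the same letters, also on the opposite strand and so printed above as their reverse complement, at 156 to 147 and at 122 to 113 bases. Bst2 held 2 overlapping ISRE cores between 130 and 115 bases and a GAS core at 136 to 128 bases that overlaps the first of them. Irf1 held a GAS core at 90 to 82 bases. The ISRE core was thus in the windows of 4 of the 9 genes, against 1.72% of 32851 RefSeq promoters of the same length, and the GAS core in 2 of the 9, against 4.36%. No match was found in the windows of Irf7, Ifit2, Oasl2 and Ifitm3, which says only that these letters are not in these windows. The Ifit2 and Irf1 genes have 2 start sites each in the RefSeq table, of which the first was used.

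**Figure D1:**
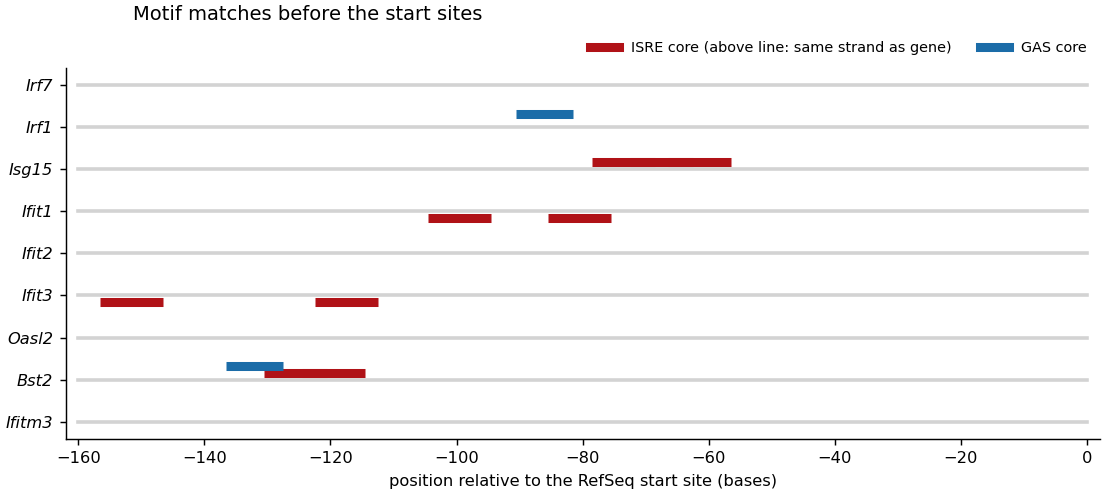
Positions of motif matches in the 160 bases before the RefSeq start site of each gene (x axis, bases; 1 row per gene). Red bars are ISRE cores, above the line on the strand of the gene and below it on the opposite strand, blue bars are GAS cores, and the 3 overlapping matches of Isg15 form 1 bar; Isg15, Ifit1, Ifit3 and Bst2 carry the ISRE core.

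The 9 genes were present at very different levels. Per unit of transcript length, in the deposited TPM values, Ifitm3 was the most abundant on every day, with 415 ± 5.48 TPM at D7 and 667 ± 24.7 TPM at D0 (SD, n = 2 libraries a day, as throughout). Bst2 came next, with 209 ± 83.3 TPM at D7 and 68.3 ± 5.36 TPM at D0, followed by Irf1 with 25.6 ± 3.37 TPM at D7 and 31.1 ± 7.04 TPM at D0. Ifit1, Ifit3, Irf7 and Isg15 averaged under 10 TPM on each of the 5 days. Ifitm3 alone gave 44.3% to 74.1% of the summed CPM of the 9 genes.

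Ifit2 fell and Oasl2 and Bst2 rose over the 7 days, so the group did not move together. In the comparison of D7 with D0, 3 of the 6 tested genes passed the threshold, an adjusted p under 0.05 in edgeR's quasi-likelihood test with Benjamini-Hochberg adjustment over 12752 genes, and 17.9% of all tested genes did, 9.15% being higher and 8.71% lower at D7. The other 3 genes, Irf7, Isg15 and Ifit3, had too few counts for the test. Over any of the 5 days, Ifit2, Oasl2 and Ifitm3 were called, again 3 of 6, against 19.1% of all tested genes. That call of Ifit2 was lost without D0 replicate 2 (edgeR adjusted p = 0.0821), and that of Oasl2 without D1 replicate 1 or any library of D0 or D7 (0.0574 to 0.107).

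**Figure D2:**
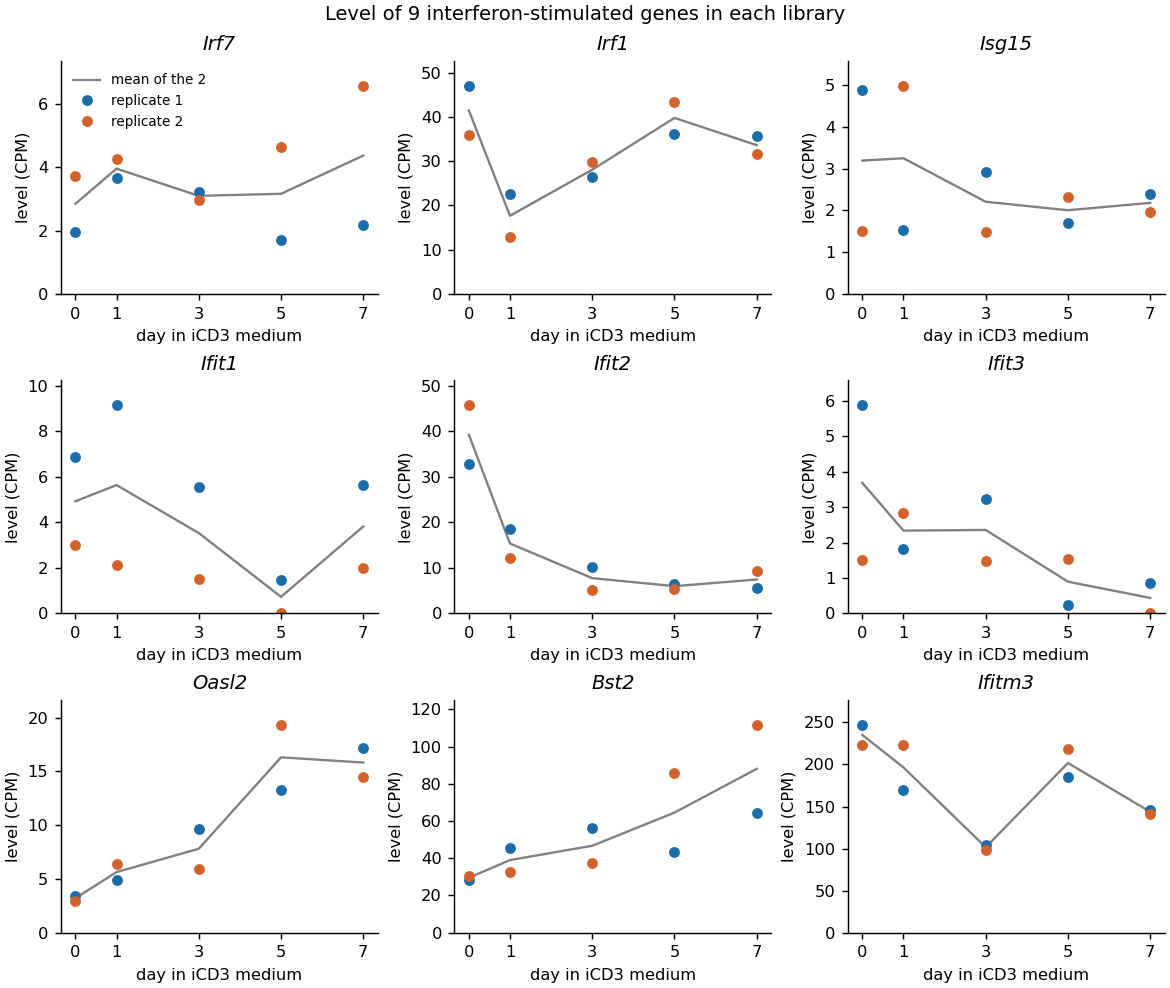
Level of each gene in CPM (y axis from 0, own scale per panel) against day in iCD3 medium (x axis), with each library as a point coloured by replicate and a line through the mean of the 2. Ifit2 is highest at D0, Oasl2 and Bst2 are lowest at D0, and Ifitm3 is lowest at D3.

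The IFIT proteins bind viral RNA through tetratricopeptide repeats, and mouse Ifit1, Ifit2 and Ifit3 lie side by side on chromosome 19. Ifit2 declined over the week. In replicate 1 it stood at 32.8, 18.6, 10.2, 6.52 and 5.66 CPM on D0, D1, D3, D5 and D7, and in replicate 2 at 45.7, 12.1, 5.22, 5.41 and 9.20 CPM. Both D0 libraries lay above every later library, both D1 libraries lay above all libraries of D3, D5 and D7, and the last 3 days overlapped. It averaged 7.43 ± 2.51 CPM at D7 and 39.2 ± 9.10 CPM at D0, which is 5.45-fold lower at D7 (log2 change -2.45, SE 0.48, edgeR adjusted p = 0.0055). Most of the difference was present by D1, at 15.3 ± 4.57 CPM, but the step from D0 to D1 was not called (log2 change -1.32, SE 0.45, edgeR adjusted p = 0.137). The D7 call was lost without D0 replicate 2 (edgeR adjusted p = 0.0588) and without D7 replicate 1 (0.0800), with log2 changes of -2.14 and -2.08.

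Ifit1 and Ifit3 were near the limit of detection. Ifit1 had 14, 30, 19, 6 and 26 counts from D0 to D7 in replicate 1, and 4, 3, 2, 0 and 3 counts in replicate 2, so replicate 1 was the higher on every day. On the CPM scale it was between 1.45 and 9.13 in replicate 1 and between 0 and 2.99 in replicate 2, and the count of 0 at D5 allows up to 2.32 CPM there. The lowest mean was that of D5, 0.725 ± 1.02 CPM, and no comparison of Ifit1 was called (edgeR adjusted p 0.558 to 0.969 over the 6 comparisons). Ifit3 had at most 11.5 counts in any library and 0 in replicate 2 at D7. It stood at 0.870 and 0 CPM at D7 and at 5.87 and 1.497 CPM at D0. These values did not overlap, but the count of 0 allows up to 1.97 CPM, above the lower D0 library. In a fit without the filter on low counts its log2 change from D0 to D7 was -2.57 (SE 1.24, edgeR adjusted p = 0.219). Ifit3 has a near-identical neighbour, Ifit3b, with which RSEM shares reads by estimation, so its values are uncertain.

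Oasl2 is related to the oligoadenylate synthetases, enzymes that make the activator of the antiviral nuclease RNase L. It stood at 3.42, 4.87, 9.66, 13.3 and 17.2 CPM from D0 to D7 in replicate 1, and at 2.99, 6.40, 5.96, 19.3 and 14.5 CPM in replicate 2. All 4 libraries of D5 and D7 lay above all 6 of the earlier days. Oasl2 averaged 15.8 ± 1.93 CPM at D7 and 3.21 ± 0.305 CPM at D0, a 4.86-fold rise (log2 change 2.28, SE 0.53, edgeR adjusted p = 0.0137). These levels rest on few reads, 79 and 22 counts at D7 and 7 and 4 counts at D0. None of the steps between neighbouring days was called, the widest being D5 against D3 at 16.3 ± 4.27 and 7.81 ± 2.61 CPM (log2 change 0.99, SE 0.48, edgeR adjusted p = 0.453). The D7 call was lost without D0 replicate 1 (edgeR adjusted p = 0.0866), D0 replicate 2 (0.0880) or D7 replicate 1 (0.102), at log2 changes of 2.44, 2.24 and 2.14.

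Bst2, also called tetherin, holds budding virus particles, those of retroviruses among them, at the cell surface. It stood at 28.4, 45.3, 56.2, 43.2 and 64.4 CPM from D0 to D7 in replicate 1, and at 30.7, 32.7, 37.3, 85.8 and 111.7 CPM in replicate 2. Every later library was above both D0 libraries, while D1, D3, D5 and D7 overlapped with their neighbours in the order of levels, and the replicates parted at D5 and D7. Bst2 averaged 88.0 ± 33.5 CPM at D7 and 29.5 ± 1.63 CPM at D0, a 2.96-fold rise (log2 change 1.57, SE 0.42, edgeR adjusted p = 0.0269). Without D7 replicate 2, its highest library, the log2 change was 1.17 and the call was lost (edgeR adjusted p = 0.153), as it was without D0 replicate 1 (0.142) or D0 replicate 2 (0.121), at 1.56 and 1.66. Over any of the days Bst2 missed the threshold (edgeR adjusted p = 0.0935) and passed it with the replicate number as a block (0.0409), a fit that called 34.9% of all tested genes.

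**Figure D3:**
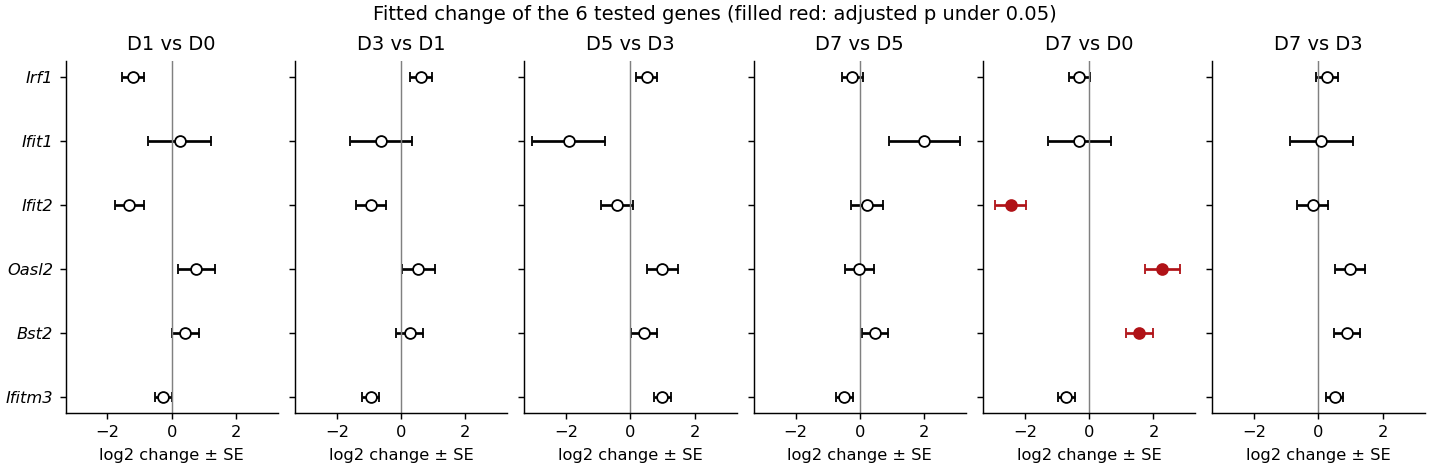
Fitted log2 change with its standard error (x axis) of the 6 tested genes (rows) in 6 comparisons of days (panels), the later day over the earlier one. Only 3 values pass the threshold (filled red), all of them in D7 against D0: Ifit2 below 0, and Oasl2 and Bst2 above 0.

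Ifitm3, a membrane protein that blocks the fusion of entering viruses in endosomes, differed between days but with no single direction. It stood at 247, 169.5, 104.8, 185 and 146 CPM from D0 to D7 in replicate 1, and at 223.0, 223.4, 98.4, 218 and 141 CPM in replicate 2. The D3 libraries were the lowest of all 10, and the D7 libraries lay below all libraries of D0, D1 and D5. The change over any day was called (edgeR adjusted p = 0.0409), though without 8 of the 10 libraries, each left out in turn, it was not (adjusted p 0.0760 to 0.150 for these 8, all libraries of D0, D1, D3 and D7). None of the tested pairs of days was called. D3 against D1 was 102 ± 4.53 and 196 ± 38.1 CPM (edgeR adjusted p = 0.271). D5 against D3 was 202 ± 23.2 and 102 ± 4.53 CPM (edgeR adjusted p = 0.184). D7 against D0 was 144 ± 3.47 and 235 ± 17.0 CPM (edgeR adjusted p = 0.0882). The days with the lowest and highest means, D3 at 102 ± 4.53 CPM and D0 at 235 ± 17.0 CPM, were not tested against each other. With the replicate number as a block, D5 against D3 (log2 change 0.98, edgeR adjusted p = 0.0360) and D7 against D0 (-0.71, adjusted p = 0.0319) were called, where 3.3% and 28.5% of all tested genes were. In the fit without the block 0.0706% of the tested genes were called in D5 against D3, 0.0549% in D3 against D1, 0% in D7 against D5 and 5.37% in D7 against D3, and none of the 9 genes was among them.

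Its relatives Ifitm1 and Ifitm2 are the other members of the IFITM family that passed the count filter, so all 3 tested members are given here. Ifitm1, known as a surface marker of early embryonic and germ cells, stood at 6.85, 64.2, 49.7, 116.2 and 116.2 CPM from D0 to D7 in replicate 1 and at 5.24, 75.4, 67.1, 151.6 and 106 CPM in replicate 2. It was already higher at D1, with 69.8 ± 7.93 CPM at D1 and 6.04 ± 1.14 CPM at D0 (log2 change 3.49, SE 0.35, edgeR adjusted p = 0.00103). At D7 it averaged 111 ± 6.87 CPM (log2 change 4.17 against D0, SE 0.36, edgeR adjusted p = 9.11e-05), and both calls were kept in all 10 fits that leave out a library. Ifitm2 averaged 195 ± 17.5 CPM at D7 and 167 ± 17.2 CPM at D0 (log2 change 0.22, SE 0.34, edgeR adjusted p = 0.712). The IFITM genes are close paralogs, so reads that fit several of them were divided by estimation.

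**Figure D4:**
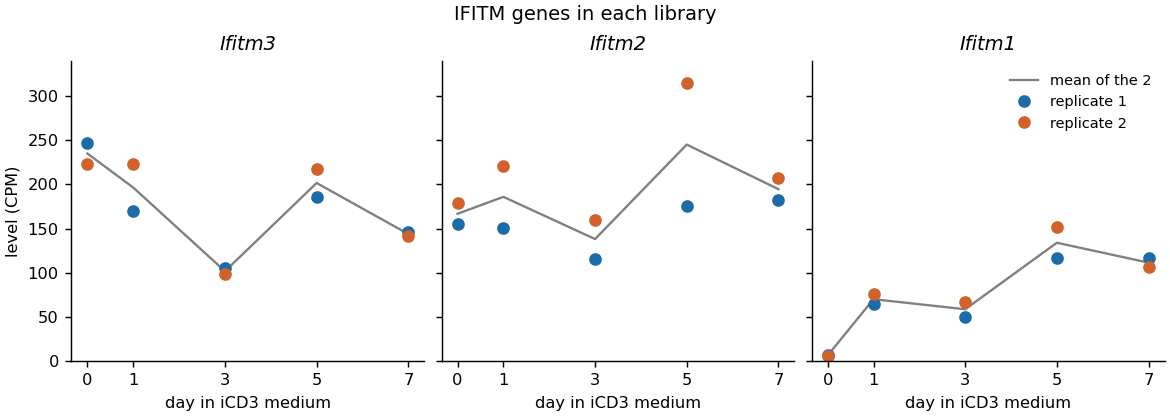
Level of Ifitm3, Ifitm2 and Ifitm1 in CPM (y axis from 0, 1 scale for all panels) against day in iCD3 medium (x axis), with each library as a point and a line through the mean of the 2. Ifitm1 is under 7 CPM in both D0 libraries and above 100 CPM in all 4 libraries of D5 and D7, while Ifitm3 is lowest at D3.

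Irf1, a transcription factor that interferon gamma induces within hours, had its lowest levels on D1. It stood at 47.0, 22.5, 26.3, 36.2 and 35.7 CPM from D0 to D7 in replicate 1, and at 35.9, 12.8, 29.8, 43.3 and 31.5 CPM in replicate 2. The D1 libraries were the lowest of the 10, and from D5 on the levels lay between 31.5 and 43.3 CPM, near or within the D0 range. In D1 against D0, where 4.52% of all tested genes were called, Irf1 missed the threshold at 17.7 ± 6.87 and 41.4 ± 7.81 CPM (log2 change -1.19, SE 0.35, edgeR adjusted p = 0.0837). It passed with the replicate number as a block (edgeR adjusted p = 0.0302), a fit that called 10.6% of all tested genes. At D7 it averaged 33.6 ± 2.92 CPM, against 41.4 ± 7.81 CPM at D0 (log2 change -0.30, SE 0.33, edgeR adjusted p = 0.592). Irf1 overlaps the gene Gm17334 on the opposite strand, and neither the labels nor the headers say whether counting used strand.

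Irf7, which amplifies the type I interferon response, and Isg15, which is attached to other proteins after interferon exposure, stayed low throughout. Irf7 had 4 to 12 counts per library, or 2.18 and 6.57 CPM at D7 and 1.96 and 3.74 CPM at D0. Isg15 had 2 to 11 counts per library, or 2.39 and 1.97 CPM at D7 and 4.89 and 1.497 CPM at D0. The D7 and D0 libraries overlapped for both genes. Without the filter on low counts the D7 against D0 log2 changes were 0.57 (SE 0.98) for Irf7 and -0.53 (SE 1.04) for Isg15, with edgeR adjusted p of 0.822 and 0.866. With standard errors near 1 on the log2 scale, a change of the size of that of Bst2 would not have been detectable at this depth. Irf7 overlaps Phrf1 on the opposite strand.

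Upstream of the 9 genes, interferon transcripts were all but missing from the reads. The 21 interferon genes listed, those of type I, II and III, summed to 9.55 estimated counts over all 10 libraries, from 0 to 4.17 in a library, and none passed the count filter. Ifnb1, the interferon beta gene that fibroblasts induce first, had no count in any library. The largest entry was that of Ifnz, with 2.99 CPM in D0 replicate 2 and 0.489 CPM in D0 replicate 1, and Ifnz had no count from D1 on.

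The 12 listed genes, for receptor chains, kinases, STAT proteins and Irf9, were all tested, and in D7 against D0 1 rose and 1 fell. That is 16.7% of the 12, near the 17.9% of all tested genes. Jak1, a kinase used by type I, II and III interferon receptors, fell to 71.9 ± 5.05 CPM at D7, against 218 ± 1.86 CPM at D0 (log2 change -1.60, SE 0.27, edgeR adjusted p = 0.00284), and was called in all 10 fits that leave out a library. Ifnlr1, the specific chain of the interferon lambda receptor, averaged 6.66 ± 1.73 CPM at D7 and had no count at D0, at least 6.81-fold higher against a floor of 3 counts over both D0 libraries. Its call was lost without each of 6 libraries (edgeR adjusted p 0.0508 to 0.169). The receptor chains Ifnar1 and Ifnar2 of type I interferon were not called, at 60.7 ± 3.38 and 33.8 ± 18.2 CPM at D7 and 87.4 ± 12.9 and 47.4 ± 1.44 CPM at D0. The transcription factor gene Stat2 averaged 50.7 ± 4.85 CPM at D7 and 22.5 ± 2.13 CPM at D0, a difference called only with the replicate block (edgeR adjusted p = 0.0613 without it and 0.0176 with it). The median log2 change of the 12 in D7 against D0 was -0.45, against 0.06 for all tested genes. In D7 against D3 only the receptor gene Il10rb was called, as lower, 8.33% of the 12, against 5.37% of all tested genes. It averaged 13.4 ± 2.25 CPM at D7, 50.1 ± 11.3 CPM at D3 and 10.9 ± 3.64 CPM at D0. That call was kept in only 4 of the 10 fits that leave out a library.

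Among 12 listed IRF genes and genes of IRF2-binding proteins, 8 were tested in D7 against D0. Irf2, which can repress IRF1 targets, fell to 8.84 ± 0.506 CPM at D7, against 25.8 ± 2.63 CPM at D0 (log2 change -1.55, SE 0.42, edgeR adjusted p = 0.0265). The IRF2-binding-protein gene Irf2bpl was called, as lower, only with the replicate block (log2 change -0.89, edgeR adjusted p = 0.321 without it and 0.00973 with it). Of 20 genes for the sensing of viral nucleic acid, 16 were tested and 1 was called, or 6.25%, against 17.9% of all tested genes, Aim2, a DNA sensor, at 12.8 ± 3.18 CPM at D7 and 0.245 ± 0.346 CPM at D0, where it had 1 count in all (ratio 46.9, exact 95% counting interval 8.20 to 1876). With the block, Trim25 was called as higher and Cgas as lower besides (edgeR adjusted p = 0.0361 and 0.0481). The median log2 changes were -0.33 for the first list and -0.40 for the second.

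Of 59 other interferon-stimulated genes listed, 35 were tested, and in D7 against D0 4 rose and 1 fell, with a median log2 change of 0.16. These are 14.3% of the 35, below the 17.9% of all tested genes. With the replicate block 7 were higher and 2 lower, 25.7% against 28.5% of all tested genes. The 4 that rose were Phf11d, Ifitm1, Rtp4 and Ube2l6. Ube2l6, the conjugating enzyme for Isg15, averaged 31.6 ± 15.9 CPM at D7 and 5.93 ± 0.0823 CPM at D0 (log2 change 2.43, SE 0.57, edgeR adjusted p = 0.0139), and was the only one of 4 tested genes for Isg15 conjugation that was called. Phf11d averaged 34.1 ± 22.2 CPM at D7 and 0.619 ± 0.183 CPM at D0 (edgeR adjusted p = 0.00322). It stood at 49.8 and 18.4 CPM in the 2 D7 libraries and had about 1 count in each D0 library. The 1 that fell was Slfn2, of the Schlafen family. It averaged 0.655 ± 0.00318 CPM at D7 and 7.28 ± 0.772 CPM at D0 (log2 change -3.38, SE 0.89, edgeR adjusted p = 0.0240). The D7 libraries held only 3 and 1 counts of Slfn2, so the small SD there is no sign of close agreement. In D1 against D0, Ifitm1 rose and Lgals9, which encodes galectin-9, fell, to 6.90 ± 2.72 CPM at D1 against 39.5 ± 0.849 CPM at D0 (log2 change -2.44, SE 0.46, edgeR adjusted p = 0.0134). The call of Lgals9 was lost without each of the 4 libraries of D0 and D1 (edgeR adjusted p 0.0601 to 0.0903). In D7 against D3, Phf11d, Ube2l6 and Helz2 rose, 8.57% of the 35, against 5.37% of all tested genes. Phf11d and Ube2l6 lost that call without either D3 library or D7 replicate 1, and Helz2 kept it in only 2 of the 10 fits that leave out a library.

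Guanylate-binding proteins and immunity-related GTPases, which interferon gamma induces, were sparse. Only 8 of 19 passed the count filter, and of these Gbp4, Gbp9 and Tgtp1 rose in D7 against D0 and none fell. The median log2 change was 1.24. These are 37.5% of only 8 genes, against 17.9% of all tested genes, and with the replicate block 37.5% against 28.5%. Tgtp1 had no count at D0. Gbp4 averaged 12.4 ± 0.866 CPM at D7 and 1.11 ± 0.509 CPM at D0, where the libraries held 3 and 1 counts (log2 change 3.37, SE 0.78, edgeR adjusted p = 0.0132). Gbp9 averaged 21.2 ± 1.65 CPM at D7 and 4.07 ± 0.467 CPM at D0 (log2 change 2.35, SE 0.59, edgeR adjusted p = 0.0195). These families hold near-identical copies, so the values are uncertain. Of the 6 tested endothelial markers, 5 also rose in D7 against D0, or 83.3%, against 17.9% of all tested genes. All 10 pluripotency markers rose in the same comparison. The part of these cell types in the GTPase values was not tested.

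Of 19 tested genes of antigen presentation by MHC class I, which interferons also induce, 4 fell and none rose in D7 against D0, with a median log2 change of -0.45. These are 21.1% of the 19, near the 17.9% of all tested genes. With the replicate block the same number were lower and 1 was higher, Psme1, an activator subunit of the proteasome (log2 change 0.84, edgeR adjusted p = 0.102 without the block and 0.0481 with it). B2m, the shared light chain of class I molecules, fell to 83.2 ± 17.1 CPM at D7, against 304.5 ± 65.5 CPM at D0 (log2 change -1.88, SE 0.38, edgeR adjusted p = 0.00627). The others were H2-T22, a nonclassical class I gene with close paralogs, and Calr and Pdia3, which fold class I molecules among many other proteins in the endoplasmic reticulum.

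Of 18 negative regulators of interferon signalling, 16 were tested, 2 rose and 1 fell in D7 against D0, with a median log2 change of 0.36. These are 18.8% of the 16, near the share of all tested genes. With the replicate block 5 were higher and 2 lower, 43.8% against 28.5% of all tested genes. Socs3, an inhibitor of JAK kinases that STAT3 induces, rose by D1. It averaged 144 ± 23.5 CPM at D1 and 23.7 ± 4.52 CPM at D0 (log2 change 2.61, SE 0.40, edgeR adjusted p = 0.00480), a call lost without D0 replicate 1. At D7 it averaged 87.7 ± 29.3 CPM, above D0 (log2 change 1.88, edgeR adjusted p = 0.00840) and below the 269.5 ± 89.8 CPM of D3 (log2 change -1.63, edgeR adjusted p = 0.0346). The call against D3 was lost without any library of D0, D3 or D7 (edgeR adjusted p 0.0545 to 0.270). The phosphatase gene Ptpn6 rose to 45.7 ± 25.6 CPM at D7, against 2.46 ± 1.36 CPM at D0 (log2 change 4.13, edgeR adjusted p = 0.00426). It was also called as higher against the 7.05 ± 5.76 CPM of D3, a call kept in only 4 of the 10 fits that leave out a library. With Socs3 that makes 12.5% of the 16 called in D7 against D3, where 5.37% of all tested genes were. Ptpn11 fell to 130 ± 17.3 CPM at D7, against 289 ± 1.57 CPM at D0 (log2 change -1.15, edgeR adjusted p = 0.00966). Of the 20 genes of these lists called in D7 against D0, 5 were called in all 10 fits that leave out a library, namely H2-T22, Ifitm1, Jak1, Phf11d and Ptpn6. Of the other 15, 12 lost the call only without a D0 or D7 library, and Ifnlr1, Pdia3 and Tgtp1 also without a library of another day.

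**Figure D5:**
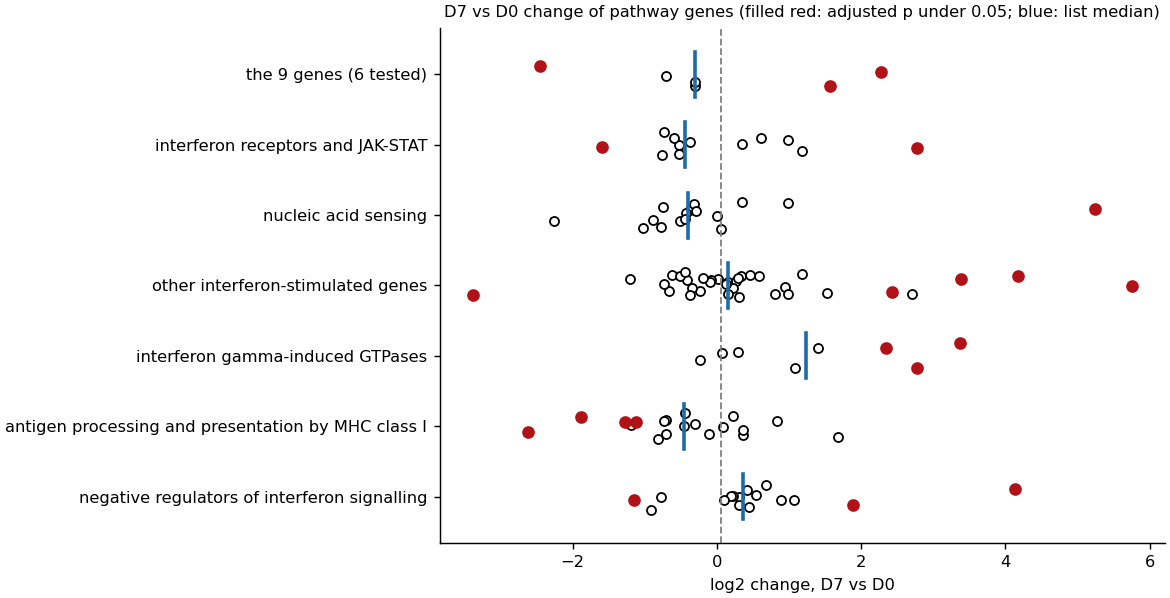
Log2 change of D7 over D0 (x axis) of each tested gene in 7 groups (rows), with called genes filled red, the median of a group as a blue bar and the median of all tested genes as a dashed line. A gene without counts on 1 of the days is drawn at its bound; called genes lie on both sides of 0 in 4 of the 7 groups, on the right only for sensing genes and GTPases, and on the left only for MHC class I genes.

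The genes whose log2 CPM ran most like each pattern named below were looked up over the 10 libraries, as a description, since all values share the same libraries and depths. For the mean of Isg15, Ifit1, Ifit2, Ifit3, Oasl2 and Irf7, the nearest were Kdsr (Pearson r = 0.88), Layn (0.83) and Fah (0.81). For Bst2 they were Edem2 (0.95), Ift52 (0.93) and 0610040J01Rik (0.93), and for Irf1 they were Wdr45b (0.95), Lgals9 (0.91) and Kctd15 (0.90). For Ifitm3 they were Bub3 (0.96), Pcdhgb8 (0.95) and Usp39 (0.91). Of these 12 genes, 1, Lgals9, is on the lists of interferon-stimulated genes used here.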

How the data were processed

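Per the submitters' processing notes, the authors handled reads with bcl2fastq, Bowtie2 and RSEM on mm10, and no versions are given in the sources used here. Deposited RSEM tables hold, as their headers name them, expected counts (estimates, not normalised) and TPM; the deposited effective lengths gave implied mean fragments of 136 to 159 bases in the libraries numbered 1 and of 199 to 204 bases in those numbered 2, and the labels name 2 library kits without saying which library had which. Gene names came from GENCODE M21 (54723 of 54752 matched).

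Expected counts were rounded, filtered by edgeR 4.0.16 (filterByExpr, minimum count 10), scaled by TMM and fitted in R 4.3.3 with a term per day over all 10 libraries by the quasi-likelihood F test, after a check on simulated data. SEs are the log2 change over the root of F, and CPM uses TMM-scaled totals. Genes called had an adjusted p under 0.05. P-values cover only how far these libraries spread, which may be technical, and counting intervals and floors cover counting error only. Same-numbered libraries deviated together (correlation 0.273 to 0.436 over 10 pairs of days, 12752 genes), so blocked values are given where they change a call of the 9 genes or a list's count in D7 against D0. Alternatives used DESeq2 1.42.0, limma 3.58.1 (voom, and log2(TPM + 1)), RLE and upper-quartile scaling, no filter, a minimum count of 20, equal depth and each library left out. The genes and lists were chosen with earlier results of these data known. From each list, up to 4 called genes with the widest change in each direction could be named in a comparison, and any gene of the upstream lists; Ifitm2 was added after its values were seen. Promoter sequences are from RefSeq, which matched all 9 genes. FPKM values were not used, and some genes are not reported here.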

Additional observations from a re-analysis of the deposited data

How the results depend on the processing

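Of the 672 recomputed log2 changes of the 6 tested genes, 635 kept direction and side of the threshold, 3 gained a call, 10 lost it and 24 changed sign, none of them called in either fit. Irf7, Isg15 and Ifit3 are not in this tally. With the replicate block, 1 of the 9 genes was called in D1 against D0 (Irf1) and 1 in D5 against D3 (Ifitm3), where 0 were called without it, and 4 in D7 against D0 and over any day, where 3 were; the block lost no call. On log2(TPM + 1) 1 gene was called over any day. Leaving out a library gave 0 to 3 of these genes called in D7 against D0 and 0 to 4 over any day, 0 in both without D0 replicate 2. Oasl2 lost its D7 call on log2(TPM + 1) and at equal depth, where Ifit2 and Bst2 kept theirs; Ifitm3 lost its call over any day with upper-quartile scaling (adjusted p = 0.0541) and without the filter (0.0666). Oasl2 in D7 against D5 (log2 change -0.01) was 0.011 with the block and with RLE, 0.0071 with DESeq2, 0.048 without the filter, 0.0025 at a minimum count of 20, 0.11 with voom and 0.36 on log2(TPM + 1). Ifit2 on log2(TPM + 1) was 0.33 in D5 against D3 (-0.41 in CPM), -0.26 in D7 against D5 (0.23) and 0.068 in D7 against D3 (-0.19), and -0.14 at equal depth in D7 against D5. Leave-outs spanned 0 for Ifit1 in D1 against D0 (-0.18 to 1.001), D7 against D0 (-1.33 to 0.49) and D7 against D3 (-0.93 to 1.42), for Bst2 in D3 against D1 (-0.047 to 0.58) and D5 against D3 (-0.14 to 0.83), for Ifit2 in D5 against D3 (-0.76 to 0.21), D7 against D5 (-0.10 to 0.59) and D7 against D3 (-0.53 to 0.45), and for Oasl2 in D7 against D5 (-0.26 to 0.26). The cause was not tested. Depth limits Irf7, Isg15, Ifit3 and Ifit1, which had at most 30 counts in a library.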
